A study of Mus musculus with 14 samples.

Results

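miR-219 and the arms of miR-338, miR-338-3p and miR-338-5p, are microRNAs of the oligodendrocyte, the cell that wraps axons in myelin. They were taken by their names in the array design (mmu-miR-219, mmu-miR-338-3p and mmu-miR-338-5p), and are 3 of 566 mouse miRNAs on the arrays. Corpus callosum of male mice was profiled on 14 single-colour Agilent arrays, which read the brightness of a labeled small RNA bound to its probes. Control mice (4 arrays) ate a normal diet, and the labels give no age for them. Mice of the 4wd group (4 arrays) were fed cuprizone, a copper chelator that kills oligodendrocytes, at 0.2 to 0.4% of powdered chow for 4 weeks, from 7 to 8 weeks of age per the study's methods. The 2dr group (4 arrays) was returned to regular chow for 2 days after the same 4 weeks, and the 2wr group (2 arrays) for 2 weeks. No strain is named for these mice in the sources used here, and the 3 cuprizone-fed groups share the 4 weeks of feeding. The arrays lay on 2 slides: slide 1 held 8 (control 1 and 2, 4wd 1 and 2, 2dr 1, 2 and 4, 2wr 1) and slide 2 held 6 (control 3 and 4, 4wd 3 and 4, 2dr 3, 2wr 2).

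A miRNA is cut from a hairpin transcript as a pair of arms, 5p and 3p, and 1 arm usually becomes the more abundant guide that pairs with target mRNAs through its seed, bases 2 to 8. In oligodendrocytes miR-219 and miR-338-3p are among the miRNAs that rise as precursors mature, and both are known to repress factors that keep precursors dividing. Oligodendrocytes are lost during cuprizone feeding and new ones form after the return to regular chow, and the comparisons ask how these miRNAs stood in each phase. In tissue samples, fewer cells of a type and less miRNA per cell cannot be told apart.

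The 3 mature sequences are shown because their seeds set them apart, with bases 2 to 8 in capitals. No other mature miRNA in the RefSeq table for GRCm38.p6, of 1679 names, has any of these 3 seeds. The array's mmu-miR-219 was taken as miR-219a-5p of that table, where 2 hairpins give the identical mature sequence.
miR-219a-5p: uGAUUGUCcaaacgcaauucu
miR-338-3p: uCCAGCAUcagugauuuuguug
miR-338-5p: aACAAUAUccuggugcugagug

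The hairpins are shown because the arms of miR-338 come from a single transcript and miR-219 from a pair of genes on different chromosomes, which the array cannot separate. Mature sequences of the table are in capitals. Mir338 lies on the minus strand at chr11:120014765-120014862 of GRCm38.p6, within the interval of Aatk, and overlaps Mir3065. The first capital stretch of its hairpin is miR-338-5p and the second is miR-338-3p. Mir219a-1 lies on the minus strand at chr17:34024983-34025092 and overlaps Mir219c. Mir219a-2 lies on the minus strand at chr2:29845631-29845727, within the interval of Cercam, and overlaps Mir219b.
Mir338: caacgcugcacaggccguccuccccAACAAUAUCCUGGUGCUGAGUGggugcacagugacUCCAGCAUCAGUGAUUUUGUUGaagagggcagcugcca
Mir219a-1: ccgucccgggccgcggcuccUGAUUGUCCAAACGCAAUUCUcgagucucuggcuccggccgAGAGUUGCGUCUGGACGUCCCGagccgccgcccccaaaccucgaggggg
Mir219a-2: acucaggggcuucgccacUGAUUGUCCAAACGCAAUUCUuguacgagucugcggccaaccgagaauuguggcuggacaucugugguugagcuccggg

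Signals differed between arrays before scaling. The 75th percentile of the 170 miRNAs detected on all arrays was 379 to 849 signal units on control arrays, 217 to 344 on 4wd arrays, 209 to 655 on 2dr arrays and 306 to 619 on 2wr arrays. Control arrays detected 236 to 287 mouse miRNAs, 4wd arrays 210 to 240, 2dr arrays 181 to 253 and 2wr arrays 198 and 283. Each signal was divided by its array's 75th percentile and taken to log2, so that a value of 0 equals that percentile. All levels below are such scaled log2 signals. Levels of different miRNAs are not set against each other, since probes differ in brightness. All 3 miRNAs were among the 225 tested, and none was called changed in any of the 6 comparisons of groups (limma with Benjamini-Hochberg adjustment, threshold 0.05, and a 2-fold minimum). Of all miRNAs tested, 0.444% were called higher at 4wd and 0.889% higher at 2dr against control, and 0% in every other comparison and direction.

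miR-338-3p, the arm known for its role in oligodendrocyte maturation, was detected on all 14 arrays. The control arrays 1 to 4 read 2.89, 1.56, 0.61 and 1.81. The 4wd arrays read 0.80, 0.02, 0.71 and 0.65. Only control 3 lay among the 4wd arrays, and the other 3 control arrays lay above all of them. The 2dr arrays read 1.05, 0.40, 0.23 and 2.23, so that 2dr 1 and 2dr 4 lay within the control range while 2dr 2 and 2dr 3 lay below every control array. The 2wr arrays read 1.34 and 1.18, above all 4wd arrays.

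miR-338-3p averaged 1.72 ± 0.94 (SD, n = 4) in control and 0.55 ± 0.35 (n = 4) at 4wd. The difference was -1.17 (standard error 0.49, 95% interval -2.22 to -0.12), a mean 2.25-fold lower at 4wd. It did not pass limma's test over 225 miRNAs (p = 0.032, Benjamini-Hochberg adjusted p = 0.402), and the exact two-sided permutation test of the means gave p = 0.114, with 0.0286 the smallest that 4 against 4 arrays allow. Of the miRNAs tested, 4.89% were at least 2-fold lower by their means and 4% had an unadjusted p under 0.05 in that direction. At 2dr the mean was 0.98 ± 0.91 (n = 4) and differed from control by -0.74 (adjusted p = 0.454 with limma). At 2wr it was 1.26 ± 0.11 (n = 2) and differed from control by -0.45 (adjusted p = 0.996 with limma). In order, the means ran from control through 2wr and 2dr to 4wd, and no neighbours in that order differed by more than the SD of the wider group.

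miR-338-3p on the 2wr arrays was 0.72 above 4wd, a mean 1.64-fold higher (95% interval -0.57 to 2.00 on the log2 scale). With 2 against 4 arrays the smallest exact two-sided p is 0.133, which this comparison reached, so it could not pass 0.05, and limma gave an adjusted p of 0.962. Of the miRNAs tested, 4.89% had both 2wr arrays above every 4wd array. The 2wr array was the higher on slide 1, by 0.93, and on slide 2, by 0.50.

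miR-219 was also detected on all 14 arrays, and every one of its 20 spots was well above background. The control arrays 1 to 4 read 1.80, 0.35, -1.32 and 0.46, the widest range of the 4 groups, with control 3 the lowest of all 14 arrays. The 4wd arrays read -0.17, -1.23, -0.12 and -0.51. The 2dr arrays read 0.29, -0.63, -0.79 and 1.01, and the 2wr arrays -0.01 and -0.34. All groups overlapped with control. For 4wd and 2wr this was through control 3 alone, and without it each of their arrays lay below the lowest remaining control array. The 2dr group overlapped also without control 3, as 2dr 4 lay above control 2 and control 4.

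miR-219 averaged 0.32 ± 1.28 (n = 4) in control and -0.51 ± 0.51 (n = 4) at 4wd, a difference of -0.83 (95% interval -2.07 to 0.41; limma adjusted p = 0.601). The exact two-sided permutation p was 0.314 (n = 4 against 4). The difference was -0.35 at 2dr (adjusted p = 0.742) and -0.50 at 2wr (adjusted p = 0.996), both with limma. The means ran from control through 2dr and 2wr to 4wd, with neighbours closer than their spread. At 4wd 1 control array decided the size: the difference was -1.38 without control 3 and -0.34 without control 1, while at 2dr it turned to 0.14 without control 1.

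**Figure D1:**
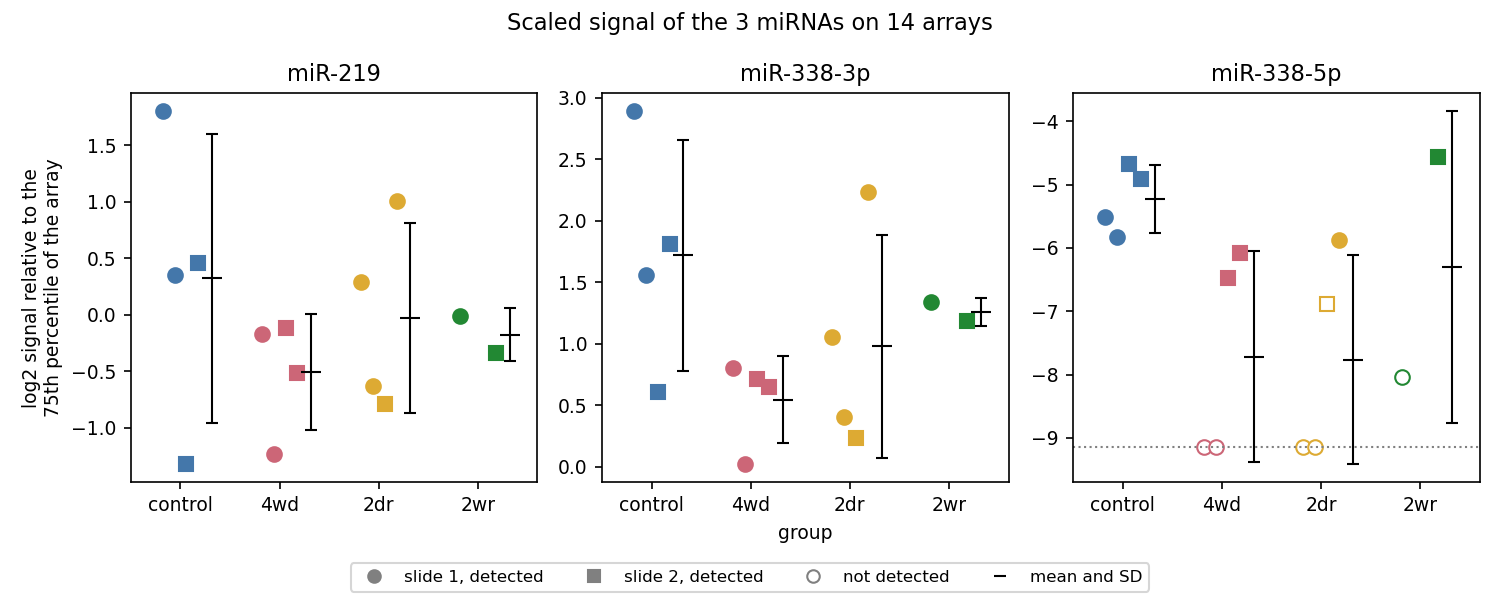
Scaled log2 signal (vertical axes) of miR-219, miR-338-3p and miR-338-5p on each of the 14 arrays by group, with the group mean and SD. Circles are slide 1 and squares slide 2, open symbols were not detected, and the dotted line is the floor of -9.15. The miR-338-3p values of 4wd lie between 0.02 and 0.80, and miR-338-5p lies between -5.82 and -4.67 on the control arrays, above every 4wd and 2dr array. The nearest is 2dr 4 at -5.88.

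miR-338-5p, the opposite arm of the miR-338 hairpin, was dim. The image software called it present on every control array, on 4wd 3 and 4wd 4, on 2dr 4 and on 2wr 2, which makes 8 of the 14 arrays. In unscaled units the control arrays read 13.8, 10.1, 14.9 and 28.1, with an error of 1.81 to 2.66 given by the image software. The 4wd arrays read -2.73, -1.55, 2.43 and 5.09. The 2dr arrays read -1.44, -2.44, 5.58 and 10.4, and the 2wr arrays 1.16 and 26.2. Of its 4 probes, 2 were not well above background on any array and the others were on 6 of 14, so the measurement rests on that pair. miR-338-5p was among the miRNAs tested only because all control arrays detected it, as no other group did so throughout. That filter favours a higher control level, so its comparisons with control are descriptions and support no difference.

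As scaled log2 signals, miR-338-5p read -5.51, -5.82, -4.67 and -4.91 on the control arrays. The 4wd arrays 1 and 2 were at the floor of -9.15, and 4wd 3 and 4 read -6.48 and -6.08. The 2dr arrays 1 and 2 were at the floor, 2dr 3 read -6.88 and 2dr 4 read -5.88. Every 4wd and every 2dr array lay below every control array. At 2dr this held by little and only after scaling: 2dr 4 (-5.88) lay just below control 2 (-5.82), but above it in unscaled units (10.4 against 10.1). The 2wr arrays read -8.04 and -4.56, the first below and the second above all control arrays.

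Because miR-338-5p was not well above background on any 4wd array, the size of its difference depends on the limit taken for dim signals. The control mean was -5.23 ± 0.53 (n = 4). The 4wd mean came to -6.46 when each array is set to its lowest signal well above background, or to its own value where higher. By that limit the 4wd mean was 2.35-fold lower, which is no firm minimum. A common floor of -6.28 left a difference of -1.003, and normexp, another background correction, turned it to 1.12. Since the filter favours control, these values describe the arrays and support no difference. The fitted difference of -2.49, from a measured 4wd mean of -7.72, gave a limma adjusted p of 0.402. Of all miRNAs tested, 2.67% had every 4wd array below every control array.

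At 2dr, where 1 of 4 arrays measured it well above background, the fitted miR-338-5p difference from control was -2.54 (limma adjusted p = 0.368). Of the miRNAs tested, 4% had every 2dr array below every control array, an order that miR-338-5p did not have before scaling. At 2wr, where the arrays fell on opposite sides of the control arrays, the fitted difference was -1.08 (limma adjusted p = 0.996). The fitted sizes depend on the floor: with a floor 4 times lower they were -3.49 at 4wd and -3.54 at 2dr, and with the floor of -6.28 the 2dr difference was -0.95. The 75th percentile of the 4wd arrays was also lower (217 to 344 signal units against 379 to 849 on control arrays), and its part in this result was not tested.

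**Figure D2:**
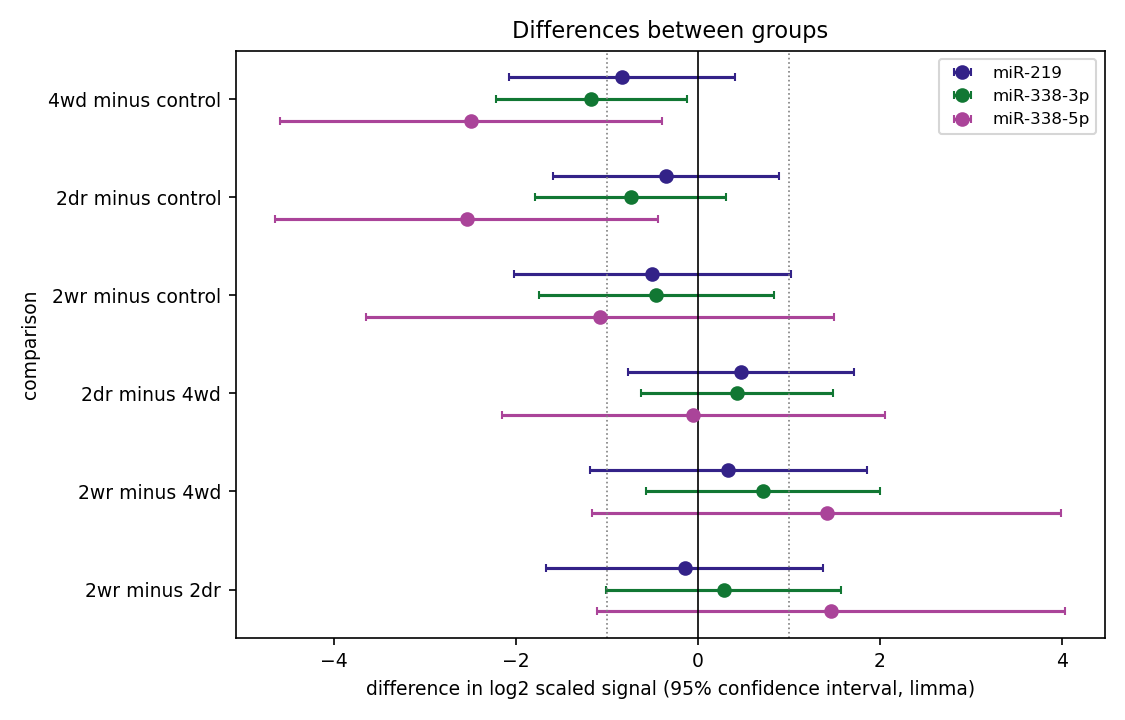
Difference in mean scaled log2 signal between groups (horizontal axis) with its 95% confidence interval from limma, for 6 comparisons and 3 miRNAs. Dotted lines mark a 2-fold difference, and the intervals that leave out 0, before adjustment, are those of miR-338-3p at 4wd (-2.22 to -0.12), of miR-338-5p at 4wd (-4.59 to -0.39) and of miR-338-5p at 2dr (-4.64 to -0.44), all against control, those of miR-338-5p resting on arrays set to the floor.

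Between the cuprizone-fed groups no member was called. From 4wd to 2dr, miR-219 differed by 0.48 (95% interval -0.76 to 1.72) and miR-338-3p by 0.43 (-0.62 to 1.48). From 2dr to 2wr they differed by -0.14 and 0.28, each with a limma adjusted p of 1. From 4wd to 2wr, miR-219 differed by 0.33 (limma adjusted p = 0.962). No size is given for miR-338-5p between these groups, since most of their arrays did not measure it well above background. The difference of miR-338-3p from 4wd to 2dr came to 0.01 without 2dr 4, the 2dr array with the highest signal.

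Differences from control were larger in size on slide 1 than on slide 2 for miR-219 and miR-338-3p in each group, though by little for miR-338-3p at 2dr. At 4wd against control, miR-219 differed by -1.78 on slide 1 and by 0.11 on slide 2, each from 2 arrays against 2. miR-338-3p differed by -1.81 on slide 1 and by -0.53 on slide 2. miR-338-5p differed by -3.49 and -1.49, with both 4wd arrays below both control arrays on each slide. Both 4wd arrays of slide 1 were at the floor, and with the floor of -6.28 the order of the slides turned, to -0.62 on slide 1 and -1.39 on slide 2. At 2dr against control, miR-338-3p differed by -0.99 on slide 1 (3 arrays against 2) and -0.98 on slide 2 (1 against 2), and miR-338-5p by -2.40 and -2.08, which became -0.48 and -1.49 with the floor of -6.28. At 2wr against control, miR-219 differed by -1.09 and 0.09, miR-338-3p by -0.88 and -0.03, and miR-338-5p by -2.38 and 0.23. With slide as a block in limma, no member was called either, the lowest adjusted p at 4wd being 0.142, for miR-338-5p.

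The slides differed in opposite directions for the arms of miR-338. Slide 2 arrays averaged 0.61 lower than slide 1 arrays for miR-219 and 0.42 lower for miR-338-3p, but 2.14 higher for miR-338-5p. On slide 1, 4 of the 8 arrays were at the floor for miR-338-5p, and with the floor of -6.28 its difference between slides was 0.61. Slide 2 arrays also detected more miRNAs, 232 to 287 against 181 to 246 on slide 1. Differences within slides are given beside those over all arrays, and the part of slide in the arm values was not tested.

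The difference between the arms (log2 miR-338-5p minus log2 miR-338-3p on the same array) asks whether both products of the hairpin moved alike. Its size on 1 array depends on the probes and only its change between groups is read. On the control arrays it was -8.39, -7.38, -5.28 and -6.73, and at 4wd -9.96, -9.18, -7.19 and -6.73. At 2dr it was -10.2, -9.55, -7.10 and -8.12, and at 2wr -9.38 and -5.75. All slide 1 arrays lay at -7.38 or below and all slide 2 arrays between -7.19 and -5.28, so that every slide 2 array lay above every slide 1 array whatever its group. With the floor of -6.28 the slides overlapped, slide 1 reaching up to -6.30 and slide 2 down to -6.99.

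The arm difference averaged -6.94 ± 1.31 (n = 4) in control, -8.26 ± 1.55 (n = 4) at 4wd, -8.74 ± 1.40 (n = 4) at 2dr and -7.57 ± 2.57 (n = 2) at 2wr. It differed from control by -1.32 at 4wd (exact two-sided permutation p = 0.229) and by -1.80 at 2dr (exact p = 0.143), and over the 6 pairs of groups the adjusted p was 0.667 throughout. Within slides, 4wd differed from control by -1.68 on slide 1, without overlap, and by -0.96 on slide 2, where control 4 and 4wd 4 both read -6.73. The 6 arrays that did not detect miR-338-5p give only an upper limit to the difference, 5 of them on slide 1. With a floor of -6.28, which sets the miR-338-5p signal of these arrays equal, the 4wd difference turned to 0.17, from 1.19 on slide 1 and -0.86 on slide 2.

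**Figure D3:**
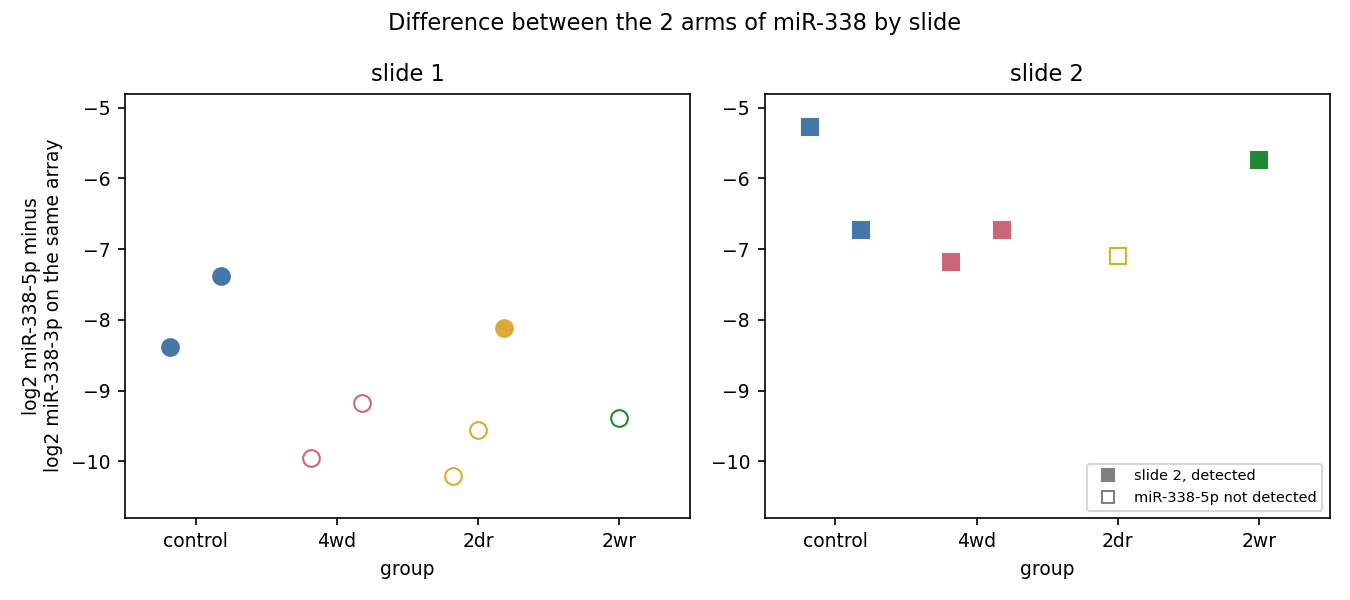
Difference between the arms of miR-338 on the same array (vertical axis, log2) by group, with slide 1 on the left and slide 2 on the right. Open symbols are arrays that did not detect miR-338-5p. Slide 1 arrays lie between -10.2 and -7.38 and slide 2 arrays between -7.19 and -5.28, and on slide 1 both 4wd arrays lie below both control arrays.

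Over the 14 arrays, miR-219 and miR-338-3p varied together. Pearson's r was 0.937 (permutation p = 1e-05, the smallest that 100000 resamples can give) and Spearman's rho 0.934 (permutation p = 2e-05), and adjusted over the 3 pairs of members these were 3e-05 and 6e-05. Without control 1 and control 3, the arrays farthest from the median of miR-219, r was 0.940. It was 0.980 over the 8 arrays of slide 1 (exact p = 0.000124), with rho 0.976 (exact p = 0.000397), and 0.947 there without control 1 and 4wd 2. Over the 6 arrays of slide 2 it was 0.774 (exact p = 0.067, adjusted p = 0.2), with rho 0.886 (exact p = 0.033, adjusted p = 0.1), and without control 3 and control 4 it was 0.659 over the 4 arrays left. With the mean of each group subtracted it was 0.967, so that arrays of 1 group that were high in one were high in the other. The array with the lowest miR-219, control 3, also had the lowest miR-338-3p of the control arrays, and 2dr 4 had the highest of both at 2dr.

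**Figure D4:**
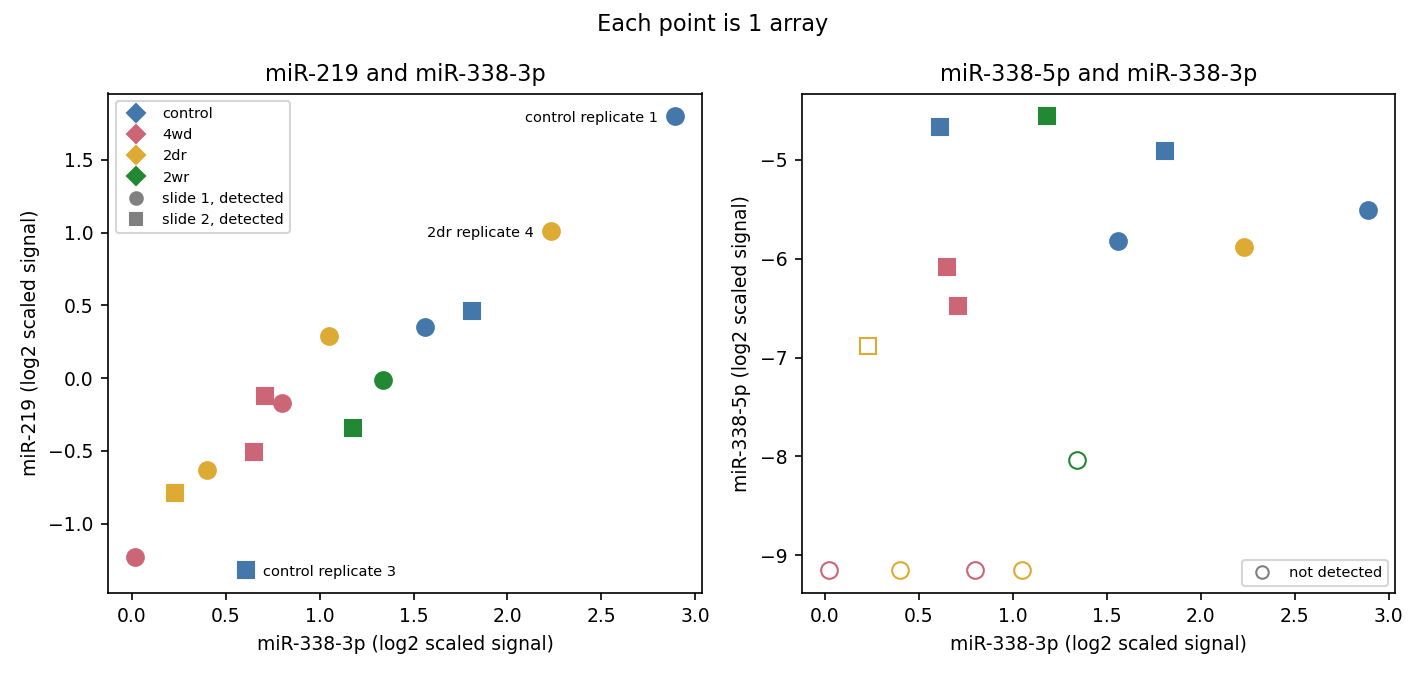
Scaled log2 signal of miR-219 (left) and miR-338-5p (right) against miR-338-3p, 1 point per array, coloured by group, circles for slide 1 and squares for slide 2. Open symbols did not detect miR-338-5p. On the left the arrays of both slides fall along 1 line (r = 0.937 over 14 arrays), and on the right the squares lie above most circles at the same miR-338-3p signal.

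For miR-338-5p no relation passed the test over all 14 arrays: r was 0.238 with miR-219 (rho 0.227, permutation p = 0.415 and 0.431) and 0.465 with miR-338-3p (rho 0.476, permutation p = 0.093 and 0.088, adjusted p = 0.140 and 0.131). Without the 2 arrays farthest from the median these r were 0.391 and 0.422, and with group means subtracted 0.06 and 0.18. The slides overlapped for miR-338-5p but differed in their means, and values within slides were higher on slide 1. Pearson's r with miR-338-3p, from the same hairpin, was 0.883 within slide 1 (n = 8, exact p = 0.00119, adjusted p = 0.00179) and 0.642 within slide 2 (n = 6, exact p = 0.174), with rho 0.913 (exact p = 0.00476) and 0.486 (exact p = 0.356). With slide means subtracted it was 0.835 over 14 arrays (permutation p = 0.00012, adjusted p = 0.00018). With miR-219, r was 0.809 within slide 1 (n = 8, exact p = 0.00595) and 0.03 within slide 2 (n = 6, exact p = 0.960). The slide 1 values include 4 arrays tied at the floor. Leaving out control 1 and 4wd 2, they were 0.869 with miR-338-3p (n = 6, exact p = 0.0167) and 0.754 with miR-219 (n = 6, exact p = 0.092). miR-338-5p passed the detection filter only through the control arrays. There miR-338-3p and miR-219 also had their highest means, so the filter favours a positive r. The r of miR-338-5p are therefore descriptions and support no relation.

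Among the other 224 miRNAs tested, miR-338-3p was the one most like miR-219 by Pearson's r over 14 arrays, and miR-219 the one most like miR-338-3p. This held on slide 1 and with group or slide means subtracted, while on slide 2 miR-338-3p ranked 12 for miR-219 and miR-219 ranked 6 for miR-338-3p. Next for miR-219 came miR-140 (r = 0.909), miR-350 (0.856), miR-362-3p (0.849) and miR-151-5p (0.780). Next for miR-338-3p came miR-362-3p (0.897), miR-140 (0.863), miR-151-5p (0.840) and miR-365 (0.839). For miR-338-5p the most alike were miR-532-3p (0.961), miR-700 (0.916), miR-181a (0.868), miR-181b (0.844) and miR-138* (0.842), with miR-338-3p at rank 48 and miR-219 at rank 75. These values are descriptions over arrays that share slides and scaling, and for miR-338-5p they include the difference between slides.

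The spread within groups was wide for these miRNAs. The residual SD was 0.89 for miR-219, 0.74 for miR-338-3p and 1.53 for miR-338-5p, against a median of 0.45 over the 225 miRNAs tested, of which 37, 52 and 10 had a larger one. Before scaling, the log2 signals of the pair of miR-219 probes followed each other over arrays (r = 0.997), as did those of miR-338-3p (r = 0.982). Brightness shared by a whole array adds to these r. The log2 ratio of a pair, which scaling leaves unchanged, had an SD of 0.10 for miR-219 and 0.24 for miR-338-3p over 14 arrays. These lay below the residual SDs, so most of the spread was common to both probes. Their ratio moved with slide: for miR-338-3p the second probe exceeded the first by 1.67 on slide 1 and 1.23 on slide 2 on the log2 scale. No array stood apart from its group of 4 by Dixon's test in 15 tests of the 3 miRNAs, the arm difference and the difference of miR-219 and miR-338-3p.

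A list of 6 miRNAs of oligodendrocyte differentiation holds these 3, together with miR-138, miR-23a and miR-32. Of the 5 tested, none was called at 4wd, 2dr or 2wr. The median difference from control was -0.83 at 4wd, against 0.03 over all miRNAs tested. That median is the value of miR-219 itself, as 3 of the 5 are the members, so it says nothing of the list beyond them. miR-138, known to act early in oligodendrocyte maturation, differed by 0.31 at 4wd and -0.62 at 2dr. miR-23a, known to repress lamin B1 in oligodendrocytes, differed by 0.13 at 4wd and 0.48 at 2dr, so that neither mean lay below control at 4wd, where the other 3 means did. miR-32 was not tested, being detected on no array.

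Of 9 miRNAs tied to oligodendrocyte progenitors, 5 were tested and none was called. Their differences at 4wd were 0.12 for miR-9, 0.62 for miR-7a, 0.22 for miR-19b, 0.14 for miR-20a and 0.24 for miR-27a, with a median of 0.22 against 0.03 over all tested. The differences at 2dr went both ways. They were -0.57 for miR-9, -0.39 for miR-7a, 0.64 for miR-19b, 0.93 for miR-20a and 0.45 for miR-27a. The largest, that of miR-20a, of the miR-17 to miR-92 cluster that promotes precursor division, had a limma adjusted p of 0.368. The summed scaled signal of this list moved with slide, from 2.62 to 3.74 on slide 1 and from 5.60 to 9.43 on slide 2.

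Markers of other cells in the tissue were measured beside the members. Of 5 myeloid miRNAs, 4 were tested and 1, miR-155 of activated microglia and macrophages, was called higher at 4wd (limma adjusted p = 0.038) and at 2dr (adjusted p = 0.0022). It was detected on 6 of 14 arrays (all 4 at 2dr, 1 at 4wd, 1 at 2wr and none in control) and was tested only through 2dr, a filter that favours a higher level there. Its 4wd call was lost in 8 of 15 alternative settings and on leaving out any 1 of 10 arrays, and its 2dr call was lost in 4 settings (the higher floor, no scaling, normexp and the methods' test) and on leaving out no array. Among the others tested, miR-142-3p differed from control by 1.69 at 4wd and 2.69 at 2dr, and miR-342-3p by 0.23 and 0.31. miR-223 went the other way at 4wd, by -0.91, and differed by 0.03 at 2dr. None of these others was called. Of the 5 myeloid miRNAs, 2 were detected on no control array and 2 on no 4wd array. The summed scaled signal of the list was 0.95 to 1.14 on control arrays, 1.13 to 1.41 at 4wd, 1.05 to 2.43 at 2dr and 1.21 to 1.44 at 2wr. Over the 14 arrays, the log2 of this sum had r = -0.49 with miR-219 and -0.58 with each miR-338 arm. The 5 neuronal miRNAs, each detected in every group, were not called at 4wd, 2dr or 2wr. They summed to 21.01 to 27.4 on control arrays and 12.4 to 38.1 at 4wd, with r = 0.01 with miR-219, 0.05 with miR-338-3p and -0.36 with miR-338-5p. Of 4 endothelial and mural miRNAs 2 were tested, and of 2 red blood cell miRNAs 1, and none was called. With miR-219, miR-338-3p and miR-338-5p in order, r was 0.55, 0.48 and 0.17 for the endothelial and mural sum. For the red blood cell sum it was 0.54, 0.59 and -0.08. The oligodendrocyte differentiation list without the members gave -0.28, -0.36 and -0.63, and the progenitor list -0.30, -0.28 and 0.49. An r of the myeloid size was thus not particular to that list. The part of these cells in the results was not tested.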

How the data were processed

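The authors hybridized labeled total RNA of each sample to 1 array. Feature Extraction (version 10.5.1.1 in the scanner files, while the study's methods name another version) subtracted background and called detection. It summed the probes of each miRNA into a total signal intensity on a linear scale. These deposited intensities are not normalized between arrays. The authors' deposited log2 table, scaled to a percentile of each array, was an alternative only. Here the total signal was divided by the array's 75th percentile taken over 170 miRNAs that every array detected. Values under 0.00176 (-9.15 as log2) were raised to it before log2. The 225 miRNAs that all arrays of some group detected were fitted over 4 groups with limma 3.58.1 (R 4.3.3), and a call needed a Benjamini-Hochberg adjusted p under 0.05 and 2-fold. Exact two-sided permutation tests and the permutation p of correlations were computed with numpy 2.4.6, and r, rho and their adjustment with scipy 1.17.1. The fit was tested on simulated data.

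The 3 miRNAs, the lists and the comparisons were chosen with earlier results of these data known. The miRNAs named are the 3, the members of the lists and, for each of the 3, the 5 most alike by r over the arrays. The fit as reported did not pair arrays by replicate number. Of 18 same-numbered pairs, 13 had deviations correlated over 0.1, and all ranged from -0.61 to 0.74. On the same slide lay 13 of the 18 pairs, so replicate number largely went with slide and the values do not decide whether arrays were paired. No pair of arrays differed by a median of less than 0.197. The number of arrays limits the precision, and p-values measure only the spread between these samples, which the labels do not tie to single mice. Alternatives were the mean of the spots, normexp with offset 50 on median signals, other scalings, floors and filters, slide or replicate as a block, a trended robust fit, fits of the compared groups alone, the methods' overall test with Tukey contrasts and the authors' table. Sequences are from RefSeq for GRCm38.p6. The array names of both miR-338 arms are in it, while mmu-miR-219 was taken as its miR-219a-5p. Probe positions were not checked, and the header's build, mm9, gave no coordinates.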

Additional observations from a re-analysis of the deposited data

How the results depend on the processing

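Under the alternatives other than leaving out arrays, no member was called in a comparison with control, except with normexp background correction. With normexp, miR-338-3p at 4wd passed the test (-1.29, adjusted p = 0.034), while 81 of 225 miRNAs were called against 1 in the fit as reported, 80 of them higher, and the median of all miRNAs shifted by 0.82. In the same setting miR-338-5p turned to 1.12 at 4wd and was called too, as higher (limma adjusted p = 0.037). It turned to 0.12 at 2dr, 0.23 at 2wr and -0.89 from 4wd to 2wr. The arm difference turned to 2.41, 0.82 and 0.72 against control at 4wd, 2dr and 2wr, to -1.69 from 4wd to 2wr and to -0.10 from 2dr to 2wr, and r of miR-338-5p turned to -0.25 with miR-219 and -0.55 with miR-338-3p. The cause was not tested. Unscaled signals shifted the median of all miRNAs by -0.93 at 4wd, where the members differed from control by -1.81, -2.14 and -3.48. With the higher floor the arm difference turned to 0.17 at 4wd and 0.26 at 2wr, where arrays below the floor are made equal.

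The small miR-338-5p difference from 4wd to 2dr turned to 0.17 with the percentile over all mouse miRNAs, 0.55 with quantile normalization, 0.56 without scaling, 0.0498 with the higher floor, 0.33 in the authors' values and 0.44 with slide as a block. That of the arms turned to 0.20 with quantile normalization, and miR-219 from 2dr to 2wr to 0.0129 with slide as a block. The replicate block changed no call and turned miR-338-5p at 2wr to 0.0108 (replicate number largely goes with slide). The r of miR-338-5p passed its test with miR-219 without scaling (0.57) and with slide means subtracted (0.64), and with miR-338-3p without scaling (0.69), with quantile normalization (0.65) and with slide means subtracted (0.84). These r are descriptions too, since the detection filter favours a positive r.

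Leaving out each array called no member. Against control, miR-219 ranged from -1.38 to -0.34 at 4wd, -0.90 to 0.14 at 2dr and -1.05 to -0.01 at 2wr, and miR-338-3p from -1.54 to -0.78, -1.16 to -0.35 and -0.82 to -0.06. miR-338-5p ranged from -3.04 to -2.01, -3.17 to -2.08 and -2.81 to 0.66, and the arm difference from -1.83 to -0.76, -2.35 to -1.24 and -2.44 to 1.20, with 2wr resting on 2 arrays. From 4wd to 2dr the ranges were -0.68 to 0.50 for miR-338-5p and -1.04 to 0.0298 for the arms. From 4wd to 2wr they were -0.32 to 3.15 and -1.12 to 2.52, and from 2dr to 2wr -0.28 to 3.20, -0.64 to 3.00 and, for miR-219, -0.40 to 0.20. The r of miR-219 and miR-338-3p stayed between 0.892 and 0.965 over these, and between 0.898 and 0.973 over the other alternatives. miR-338-5p has no value where only miRNAs detected on all arrays were kept.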

Other observations

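The difference between miR-219 and miR-338-3p on the same array, looked at after their values were seen and not tested, kept within a narrow range while each miRNA varied. It had an SD of 0.30 over the 14 arrays on the log2 scale, from -1.92 to -0.76, against residual SDs of 0.89 and 0.74 within groups for the miRNAs themselves. The lowest value was that of control 3, and the other 3 control arrays read -1.08, -1.20 and -1.35. The 4wd arrays lay between -1.25 and -0.83, the 2dr arrays between -1.23 and -0.76, and the 2wr arrays at -1.35 and -1.52.

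miR-362-3p, a miRNA detected on part of the arrays and alike to both miR-219 and miR-338-3p over the arrays, was 1.05 lower at 4wd than in control, 0.41 lower at 2dr and 0.27 lower at 2wr by the group means. miR-532-3p, most alike to miR-338-5p, was 1.65 lower at 4wd and 2.11 lower at 2dr. These miRNAs were named for their likeness, so the directions they share with the members are a description.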
